A study of Homo sapiens with 9 samples.

Results

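The clustered protocadherin genes on chromosome 5 were examined in ATAC-seq peak lists from HEK293T, a line derived from human embryonic kidney. The genes examined were the 53 alpha, beta and gamma members on the list for this locus, of 15849 protein-coding genes with a known start position, and the peaks were those between 140.7 and 141.6 Mb of chromosome 5 (GRCh38). ATAC-seq uses the transposase Tn5, which inserts adapters into accessible DNA, so a peak marks an accessible stretch of chromatin. The 15 alpha, 16 beta and 22 gamma genes lie in that order on the forward strand. By the gene table they span 140786140 to 141012347 (alpha), 141051374 to 141249365 (beta) and 141330514 to 141512975 (gamma).

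Clustered protocadherins are cell-surface adhesion proteins of the cadherin superfamily, best known in neurons, where different combinations of them give each cell a surface identity used in self-recognition. In the alpha and gamma clusters each variable exon has a promoter of its own and is spliced to a shared set of constant exons, whereas each beta gene is a self-contained coding exon. In neurons the alternative promoters are known to be chosen largely at random in each cell, with CTCF and cohesin bringing a promoter to a distant enhancer, and promoters that are not chosen carry DNA methylation. The C-type members PCDHAC1, PCDHAC2, PCDHGC3, PCDHGC4 and PCDHGC5 stand at the downstream ends of the alpha and gamma clusters and are known to be used in a more uniform way.

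The study made 9 libraries in 4 genotypes, all from cells with no treatment beyond the editing. The control had received a non-targeting guide RNA and had 2 libraries (batches 2 and 3). The IGF2BP1 knockout had 3 libraries (batches 1, 2 and 3), and the IGF2BP2 and IGF2BP3 knockouts had 2 each (batches 2 and 3). IGF2BP1, IGF2BP2 and IGF2BP3 are related RNA-binding proteins. For each of them a transiently transfected plasmid carried 3 guides and GFP, and 1 clone grown from a sorted cell was used, so genotype and clone cannot be told apart, and whether the control was a clone is not stated. The deposited data were 1 peak list per genotype, with the position of each peak and no height or score. No spread between libraries could therefore be measured, no test was possible, and read depth was unknown. All statements below compare lists.

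The control list held 39194 peaks, the IGF2BP1 knockout list 50917, the IGF2BP2 knockout list 60262 and the IGF2BP3 knockout list 44041. The protocadherin window held 18, 31, 30 and 23 of them in that order, or 4.59, 6.09, 4.98 and 5.22 per 10000 peaks. All of chromosome 5 held 4.95, 5.4, 5.44 and 5.29% of the peaks. Overlapping peaks of the 4 lists were merged into 71597 regions, of which 37 lay in the window. As a check of the cell label, promoter peaks were looked up at marker genes with a known start. PAX2 and WT1 (kidney lineage) and NES, INA and ENO2 (neural genes this line is known to express) had a promoter peak in all 4 lists. PAX8 had none in any list, nor had PTPRC (blood), ALB and HNF4A (liver) or MYOG (muscle). The neuronal gene SYN1 had narrow peaks of 295 bp in the control list and 293 bp in the IGF2BP3 knockout list.

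A promoter was counted as accessible in a list when a peak lay within 500 bp of the gene start. The sequences before those starts are shown first, because many members of a cluster share a short element there, among them members without a peak. Of the 53 members, 47 had an entry in the RefSeq promoter table (GRCh38.p14), which gives 250 bases before and 50 bases from each start. Entries were not used for PCDHA3, PCDHA13, PCDHB6, PCDHB11, PCDHGA12 and PCDHGC5. The element GGTGGCGCT stood on the forward strand in 13 of the 14 beta entries, the exception being PCDHB1, and in 0 of the 33 alpha and gamma entries. Of all 35116 promoter entries, 0.501% held it on either strand. This string was chosen after the beta sequences had been read. Its first base lay 16 to 84 bp before the start in 12 of the 13 beta promoters, and in PCDHB8 it spanned the start itself. In the lines below, from the forward strand of GRCh38.p14, capitals mark the element. PCDHB2, PCDHB13, PCDHB14 and PCDHB15 had a peak in at least 2 lists, whereas PCDHB3, PCDHB9 and PCDHB16 had none.
PCDHB2 (chr5:141094531-141094587): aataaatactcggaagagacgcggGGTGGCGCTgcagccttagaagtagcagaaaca
PCDHB13 (chr5:141213852-141213908): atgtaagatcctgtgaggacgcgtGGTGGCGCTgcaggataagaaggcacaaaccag
PCDHB14 (chr5:141223250-141223306): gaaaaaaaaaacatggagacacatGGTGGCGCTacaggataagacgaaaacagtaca
PCDHB15 (chr5:141245301-141245357): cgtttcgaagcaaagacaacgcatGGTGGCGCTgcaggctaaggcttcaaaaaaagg
PCDHB3 (chr5:141100380-141100436): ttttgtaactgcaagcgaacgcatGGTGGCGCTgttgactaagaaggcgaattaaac
PCDHB9 (chr5:141187061-141187117): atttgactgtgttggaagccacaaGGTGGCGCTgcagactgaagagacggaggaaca
PCDHB16 (chr5:141182297-141182353): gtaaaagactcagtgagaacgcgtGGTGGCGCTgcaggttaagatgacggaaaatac

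The same 9 bases were thus present at 5 beta promoters with a peak in some list (those 4 and PCDHB8) and at 8 without any peak. Of the 15 beta promoter peaks in the 4 lists, 14 enclosed the element. The exception was the PCDHB14 peak of the IGF2BP3 knockout list, which began 39 bp before the start. In the 57-base stretches centred on the element, the 55 pairs among 11 beta promoters had the same base at 45.6 to 73.7% of positions (median 56.1%). These shares include the 9 bases of the element, which are the same in every pair because the stretches were chosen by it. PCDHB5 and PCDHB8 were left out because their stretches would run past the start.

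In the alpha cluster the corresponding string was GATGTCGCT, again chosen after the sequences had been read. It stood in 9 of the 11 alpha entries that are not C-type, 43 to 86 bp before the start, and in 0.105% of all promoter entries on either strand. PCDHA9 and PCDHA11 lacked it. PCDHA1, PCDHA5, PCDHA8 and PCDHA10 had a peak in at least 1 list, and PCDHA2 and PCDHA6 had none in any list.
PCDHA1 (chr5:140786073-140786129): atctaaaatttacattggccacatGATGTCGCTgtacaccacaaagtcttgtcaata
PCDHA5 (chr5:140821529-140821585): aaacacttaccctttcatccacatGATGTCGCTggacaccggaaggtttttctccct
PCDHA8 (chr5:140841117-140841173): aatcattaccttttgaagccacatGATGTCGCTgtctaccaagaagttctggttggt
PCDHA10 (chr5:140855828-140855884): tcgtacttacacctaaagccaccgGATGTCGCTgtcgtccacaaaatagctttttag
PCDHA2 (chr5:140794768-140794824): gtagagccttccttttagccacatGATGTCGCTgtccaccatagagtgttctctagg
PCDHA6 (chr5:140827884-140827940): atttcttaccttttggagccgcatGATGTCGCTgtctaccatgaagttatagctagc

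Of the alpha promoters with this element, 4 had a peak in some list and 5 had none. PCDHA11, which had a peak in all 4 lists, did not hold it. Of the 8 alpha peaks at promoters with the element, 5 enclosed it. The other 3 were both PCDHA5 peaks and the PCDHA10 peak of the IGF2BP3 knockout list.

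In the gamma cluster the string CGCTGTT, chosen in the same way, stood in 13 of 18 entries that are not C-type, in 1 beta entry (PCDHB3), and in 2.26% of all promoter entries on either strand. PCDHGA7 and PCDHGA10 held it and had a peak in some list, as shown beside PCDHGA8, which had none.
PCDHGA7 (chr5:141382641-141382695): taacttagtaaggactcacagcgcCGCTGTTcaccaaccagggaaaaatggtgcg
PCDHGA10 (chr5:141412923-141412977): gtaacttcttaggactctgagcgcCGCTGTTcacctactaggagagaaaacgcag
PCDHGA8 (chr5:141392560-141392614): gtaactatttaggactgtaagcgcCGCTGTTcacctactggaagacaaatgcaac

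Of the 13 gamma promoters with CGCTGTT, 11 had no peak in any list, and PCDHGA11, PCDHGB3 and PCDHGB7 had a peak without it. C-type genes aside, the only other gamma entries without the string were PCDHGB1 and PCDHGB6, which had no peak. A peak in some list was thus found at 2 of the 13 gamma promoters with the string and at 3 of those without it. All 4 gamma peaks at promoters holding the string enclosed it. The shorter CGCT, which the 3 strings contain, had been listed beforehand as the core of the conserved element of these promoters. It was on the forward strand of 46 of the 47 member entries and of 54.3% of all entries. PCDHA9 was the exception. An exact match to a core of the general CTCF motif was found in 2 member entries, PCDHB9 and PCDHB10, and in 5.19% of all entries on either strand. The beta stretches printed above, PCDHB9 aside, differed from this core at its first base only. Near matches were not counted, so this count does not show that the other entries lack a CTCF site. TATA, counted at any position of an entry, stood in 27 of the 47 entries, against 29.2% of all. The median share of G and C bases was 39.7% in member entries and 58.7% in all entries. The part of base composition in the TATA count was not tested.

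C-type promoters differed from the others in base composition. The 4 C-type entries held 15 to 27 CG dinucleotides in 300 bases (median 20.5), against 2 to 16 (median 7.0) in the other 43 entries and a median of 14.0 over all promoter entries. CG dinucleotides are the sites of DNA methylation. The 120 bases before the start are given below with each CG in capitals. PCDHAC1 and PCDHGC3 were C-type with a peak in all 4 lists, PCDHAC2 was C-type with none, and PCDHA11 and PCDHGA11 were not C-type and had a peak in all 4.
PCDHAC1 (chr5:140926179-140926298): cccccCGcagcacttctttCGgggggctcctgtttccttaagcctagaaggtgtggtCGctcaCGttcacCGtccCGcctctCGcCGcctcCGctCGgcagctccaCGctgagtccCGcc
PCDHGC3 (chr5:141475846-141475965): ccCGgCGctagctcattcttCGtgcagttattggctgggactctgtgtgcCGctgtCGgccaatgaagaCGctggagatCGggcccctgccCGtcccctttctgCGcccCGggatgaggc
PCDHAC2 (chr5:140966356-140966475): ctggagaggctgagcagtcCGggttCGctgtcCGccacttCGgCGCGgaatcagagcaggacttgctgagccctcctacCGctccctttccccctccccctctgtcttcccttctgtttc
PCDHA11 (chr5:140868837-140868956): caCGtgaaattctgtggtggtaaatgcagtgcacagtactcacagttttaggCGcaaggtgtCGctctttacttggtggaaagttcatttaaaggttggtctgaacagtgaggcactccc
PCDHGA11 (chr5:141420931-141421050): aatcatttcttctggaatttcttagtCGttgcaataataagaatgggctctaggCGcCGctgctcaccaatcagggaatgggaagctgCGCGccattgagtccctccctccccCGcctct

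These stretches held 12 CG in PCDHAC1, 10 in PCDHGC3, 7 in PCDHAC2, 3 in PCDHA11 and 6 in PCDHGA11. Among entries that are not C-type, the 4 with a peak in all 4 lists had a median of 8.5 CG in 300 bases. The 11 with a peak in 1 to 3 lists had a median of 6.0, and the 28 with no peak had a median of 6.5. The ranges were 7 to 12, 4 to 11 and 2 to 16 in that order. The ranges overlapped, so the CG count alone did not separate them.

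Most protocadherin promoters had no called peak in any list. With the peak threshold and read depth unknown, a missing peak does not by itself show that a promoter was closed. Of the 53 members, 35 had no promoter peak in any of the 4 lists, 7 had one in all 4 and 11 had one in 1 to 3 lists. A promoter peak was present at 8 members (15.1%) in the control list, 16 (30.2%) in the IGF2BP1 knockout list, 14 (26.4%) in the IGF2BP2 knockout list and 11 (20.8%) in the IGF2BP3 knockout list. Over all protein-coding genes the shares were 67.8, 69.6, 68.9 and 68.5%. Over the other 743 coding genes of chromosome 5 they were 72.4, 74.7, 74.3 and 73.4%. A peak at any start of a gene counted, and most members had only 1 start. Genes with several starts had more places at which a peak could count, and the part of this in the shares was not tested. A peak in all 4 lists was found at 65.6% of coding genes, against 7 of the 53 members.

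**Figure D1:**
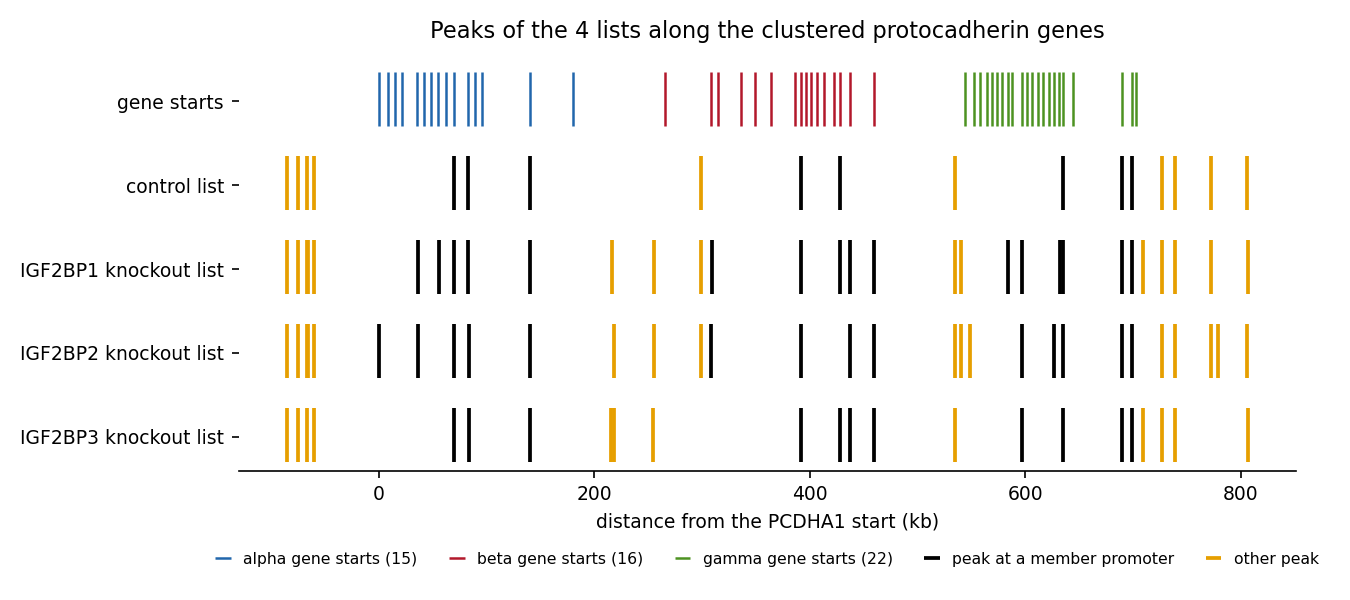
Peaks of each list (rows) and gene starts (top row) against distance from the PCDHA1 start in kb, with peaks at member promoters in black and other peaks in orange. The control row has 8 black marks, and the IGF2BP1, IGF2BP2 and IGF2BP3 knockout rows have 16, 14 and 11.

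Members accessible in all 4 lists were spread over the 3 clusters. They were PCDHA10, PCDHA11 and PCDHAC1 in the alpha cluster, PCDHB8 in the beta cluster, and PCDHGA11, PCDHGC3 and PCDHGC4 in the gamma cluster. Of the 5 C-type members, 3 belonged to this group, against 4 of the 48 others. PCDHAC2 and PCDHGC5 had no promoter peak in any list. The nearest peak lay 34.9 to 39.5 kb from the PCDHAC2 start and 3.54 to 3.74 kb from the PCDHGC5 start.

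In the alpha cluster, PCDHA10 had peaks of 736 bp in the control list, 744 bp in the IGF2BP1 knockout list, 728 bp in the IGF2BP2 knockout list and 500 bp in the IGF2BP3 knockout list. The first 3 had nearly the same edges, and the fourth began and ended inside them. PCDHA11 had peaks of 973, 915, 758 and 741 bp in the same order. Their downstream ends lay within 22 bp of each other, and the upstream ends were spread over 210 bp. PCDHAC1, the C-type promoter between the numbered alpha genes and the constant exons, had peaks of 946, 853, 770 and 974 bp. At these 3 promoters 67.2 to 76.2% of the bases covered in any list were covered in all 4.

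The other alpha members with a peak were accessible in knockout lists and not in the control list. PCDHA8 had a peak of 1037 bp, wider than 68.2% of its list, in the IGF2BP1 knockout list alone (140841090 to 140842126). PCDHA1, the outermost member, had a peak of 295 bp in the IGF2BP2 knockout list alone, at width percentile 2.39. PCDHA5 had a peak of 687 bp in the IGF2BP1 knockout list and 293 bp in the IGF2BP2 knockout list. Its peaks began 173 and 369 bp after the start, and they were the only 2 of the 49 promoter peaks that did not cover the start. The other 9 alpha members, PCDHA2, PCDHA3, PCDHA4, PCDHA6, PCDHA7, PCDHA9, PCDHA12, PCDHA13 and PCDHAC2, had no promoter peak in any list.

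In the beta cluster, PCDHB8 was the member with a peak in all 4 lists, and its peaks were narrow. They were 551 bp in the control list, 629 bp in the IGF2BP1 knockout list, 398 bp in the IGF2BP2 knockout list and 324 bp in the IGF2BP3 knockout list, at width percentiles 24.2, 24.7, 13.0 and 3.44. PCDHB13 had peaks of 529, 549 and 389 bp in the control, IGF2BP1 knockout and IGF2BP3 knockout lists. It had none in the IGF2BP2 knockout list, where the nearest peak was 9.22 kb away at PCDHB14. PCDHB13 was the only member with a control peak that a knockout list lacked.

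PCDHB14 and PCDHB15 showed the opposite arrangement, with a peak in each knockout list and none in the control list. The PCDHB14 peaks were 461, 468 and 471 bp wide for knockout of IGF2BP1, IGF2BP2 and IGF2BP3 in turn, and 47.6% of the bases they covered together were common to the 3. The PCDHB15 peaks were 581, 812 and 524 bp wide. PCDHB2 had peaks of 962 bp in the IGF2BP1 knockout list and 445 bp in the IGF2BP2 knockout list, and none in the others. The remaining 11 beta members, PCDHB1, PCDHB3, PCDHB4, PCDHB5, PCDHB6, PCDHB7, PCDHB9, PCDHB10, PCDHB11, PCDHB12 and PCDHB16, had no promoter peak in any list. The longest stretch of the window without a peak in any list, 82.3 kb from 141095400 to 141177667, held the starts of PCDHB3, PCDHB4, PCDHB5, PCDHB6 and PCDHB7. Beta genes resemble each other in sequence, and how reads that map to several places were treated is not given in the sources used here.

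In the gamma cluster, PCDHGA11 was the only member outside the C-type genes with a peak in all 4 lists. Its peaks were 779 bp in the control list, 772 bp in the IGF2BP1 knockout list, 736 bp in the IGF2BP2 knockout list and 603 bp in the IGF2BP3 knockout list. Their upstream ends lay within 19 bp of each other. PCDHGC3 had peaks of 734, 918, 850 and 793 bp in the same order, and 80.0% of the bases covered in any list were covered in all. PCDHGC4 had the widest promoter peaks among the members, with 1059, 1229, 992 and 995 bp. They began at positions -719 to -609 relative to the start used for this gene, and another start of PCDHGC4 is annotated further downstream.

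PCDHGA7 had a peak in each knockout list, of 788, 739 and 580 bp, and none in the control list. Each of the other gamma members with a peak had it in 1 list. PCDHGB3 (657 bp) and PCDHGB7 (501 bp) were accessible in the IGF2BP1 knockout list, and they were the only 2 of the 7 PCDHGB members with a peak anywhere. PCDHGA10 (297 bp, width percentile 2.53) was accessible in the IGF2BP2 knockout list. PCDHGA10, PCDHGB7 and PCDHGA11 are neighbours along the chromosome, so 3 adjacent promoters differed in which lists held a peak. The other 15 gamma members had no promoter peak in any list. They were PCDHGA1, PCDHGA2, PCDHGA3, PCDHGA4, PCDHGA5, PCDHGA6, PCDHGA8, PCDHGA9, PCDHGA12, PCDHGB1, PCDHGB2, PCDHGB4, PCDHGB5, PCDHGB6 and PCDHGC5.

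**Figure D2:**
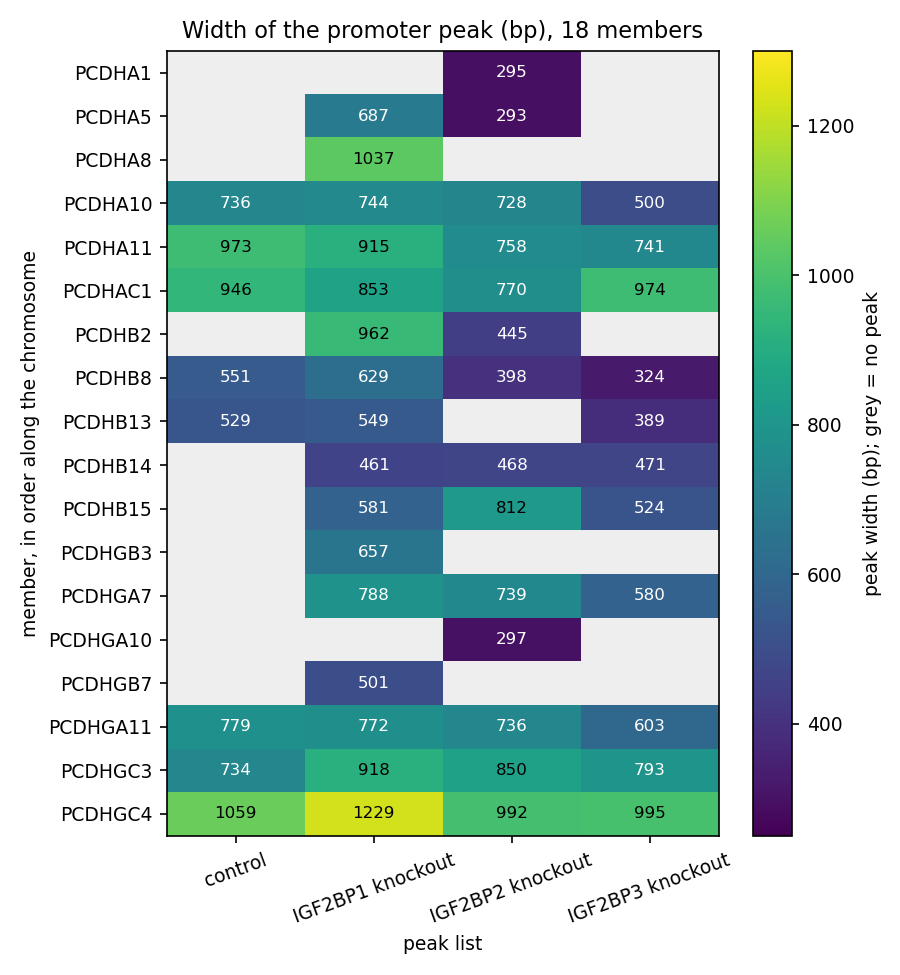
Width in bp of the promoter peak in each list (columns) for the 18 members with a peak in at least 1 list (rows, in order along the chromosome), where grey means no peak. The 7 rows filled in all 4 columns are PCDHA10, PCDHA11, PCDHAC1, PCDHB8, PCDHGA11, PCDHGC3 and PCDHGC4.

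Each knockout was then compared with the same control list, so these 3 comparisons share their reference. Of the 45 members without a control peak, 8 (17.8%) had one in the IGF2BP1 knockout list, 7 (15.6%) in the IGF2BP2 knockout list and 3 (6.67%) in the IGF2BP3 knockout list. Over all coding genes without a control peak the shares were 7.48, 7.64 and 5.9%. Over such genes elsewhere on chromosome 5 they were 9.76, 9.76 and 6.34%. A peak in all 3 knockout lists was present at 3 of the 45 members (PCDHB14, PCDHB15 and PCDHGA7, 6.67%) and at 3.13% of coding genes. In the opposite direction, 0, 1 and 0 of the 8 members with a control peak had none after knockout of IGF2BP1, IGF2BP2 and IGF2BP3, and the shares of coding genes were 0.866, 1.96 and 1.75%.

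These differences moved with the length of the lists and the width of the peaks. With each list limited to its 39194 widest peaks, members with a peak absent from the control numbered 5, 2 and 3 of 45 (11.1, 4.44 and 6.67%), and the shares of coding genes were 5.51, 4.35 and 5.13%. That setting leaves the control list whole and trims the knockout lists, so gains could only fall and losses only rise. With peaks of at least 500 bp only, the numbers were 7, 2 and 2 of 45 (15.6, 4.44 and 4.44%), against 7.77, 5.77 and 4.85% of coding genes. The member shares for the IGF2BP2 and IGF2BP3 knockouts were then below those of coding genes. PCDHB15 and PCDHGA7 were among them in the IGF2BP2 and IGF2BP3 knockout lists under both settings. In the IGF2BP1 knockout list PCDHB15 (581 bp) was below the width that the equal-length setting kept, which was 612 bp for that list. The list of the IGF2BP1 knockout also rested on 1 library more than the others, from a batch with no control library, and the part of that library in these counts was not tested.

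**Figure D3:**
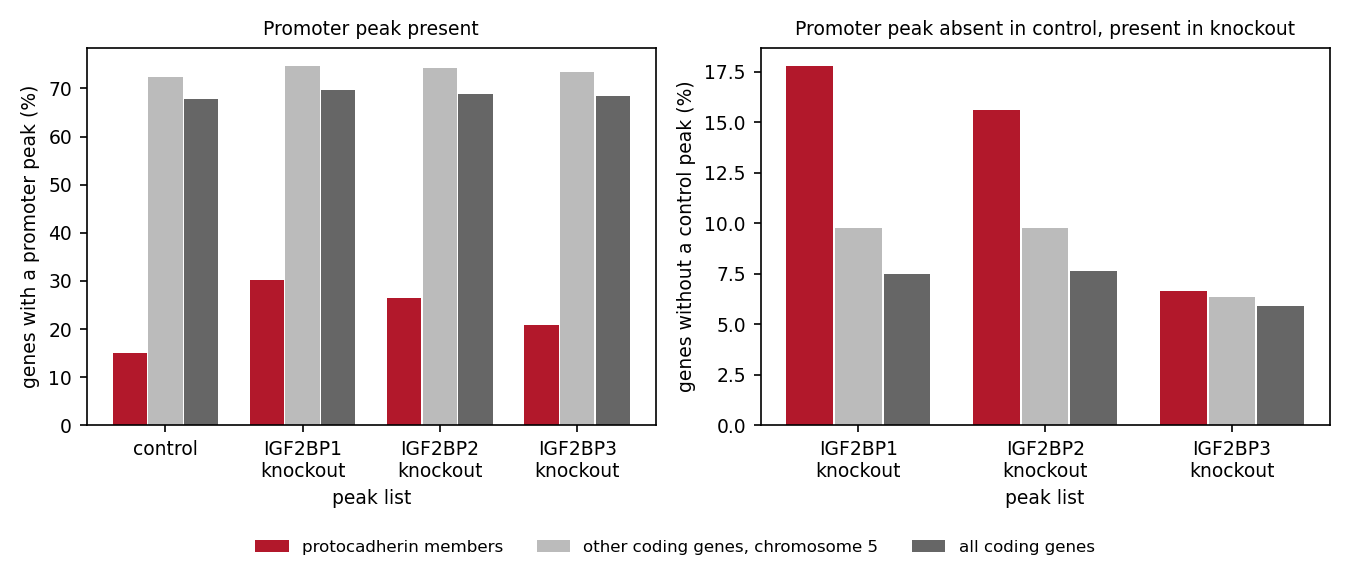
Left, percentage of genes with a promoter peak in each list; right, percentage of genes without a control peak that had one in each knockout list, for protocadherin members, other coding genes of chromosome 5 and all coding genes. Members stood at 15.1 to 30.2% on the left, below the other bars, and at 17.8, 15.6 and 6.67% on the right.

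Peaks of members seen in knockout lists only had a lower median width than those of members seen in all 4 lists. The groups were formed by which lists held a peak, and coding genes were not split in the same way. Whether the difference is particular to these members was therefore not tested. The median width percentile of the former was 30.2 in the IGF2BP1 knockout list (8 peaks), 18.6 in the IGF2BP2 knockout list (7 peaks) and 26.3 in the IGF2BP3 knockout list (3 peaks). For the latter it was 52.0, 62.6 and 53, and 50.9 in the control list, from 7 peaks each. The 2 groups overlapped in the IGF2BP1 and IGF2BP2 knockout lists, where PCDHA8 and PCDHB15 reached percentiles 68.2 and 67.2, and also in the IGF2BP3 knockout list, where PCDHB8 stood at 3.44. Every member peak stood below the median for coding gene promoters, which was at percentile 79.0, 81.3, 85.2 and 81.2 of the control, IGF2BP1, IGF2BP2 and IGF2BP3 knockout lists. In base pairs, the median member promoter peak was 758, 758, 732 and 580 bp wide, against 1140, 1250, 1110 and 1130 bp over coding genes.

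**Figure D4:**
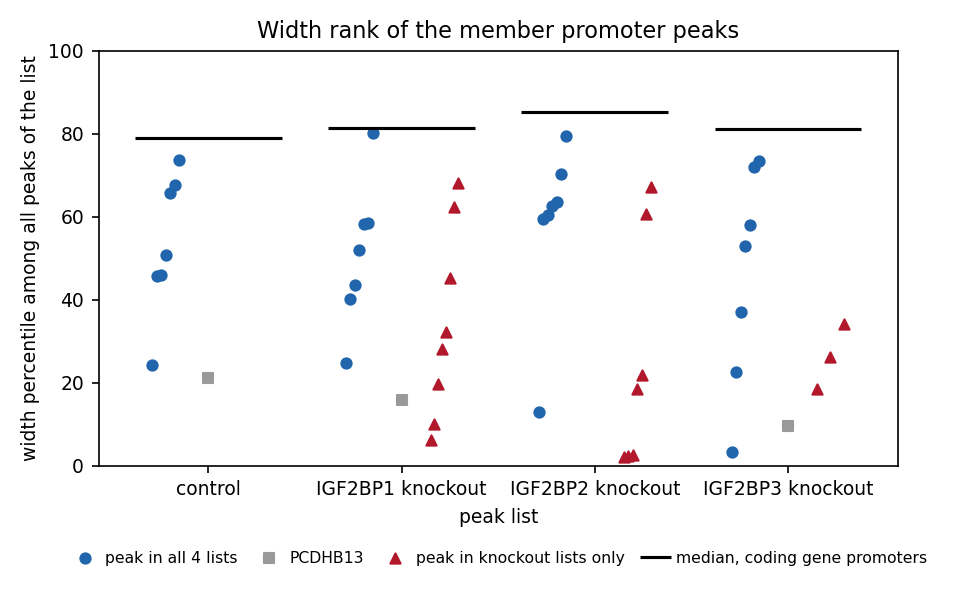
Width percentile of each member promoter peak among all peaks of its list, for members with a peak in all 4 lists (circles), PCDHB13 (squares) and members with a peak in knockout lists only (triangles), with black bars at the median of coding gene promoters. Every point lies below the bar of its list, and the lowest triangles, at 2.26 to 2.53, are in the IGF2BP2 knockout list.

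By the starts used here, the centres of member peaks also lay further into the gene than those of promoter peaks over coding genes. The centre was downstream of the start in 45 of the 49 member peaks, and the 4 exceptions were the peaks of PCDHGC4. These peaks belong to 18 promoters, many of them counted in several lists. Within the control, IGF2BP1, IGF2BP2 and IGF2BP3 knockout lists the counts were 7 of 8, 15 of 16, 13 of 14 and 10 of 11. The median centre lay 168, 173, 95.8 and 162 bp into the gene in the control, IGF2BP1, IGF2BP2 and IGF2BP3 knockout lists. Over coding genes it lay 6, 27, 9 and 23 bp into the gene, and 51.0 to 54.3% of centres were downstream. Where a coding gene had several starts with a peak, the start with the lowest coordinate was used. That is the most upstream on the forward strand and the most downstream on the reverse strand. The members all lie on the forward strand and were measured from the lower coordinate of the gene. These measures are therefore not alike, and their part in the difference was not tested. Relative to the start, the upstream edges lay between -719 and 369 bp and the downstream edges between 203 and 939 bp. No peak was near the 500 bp limit. The farthest counted began 369 bp from a start. Members without a promoter peak in a list had no peak of that list closer than 3.23 kb.

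**Figure D5:**
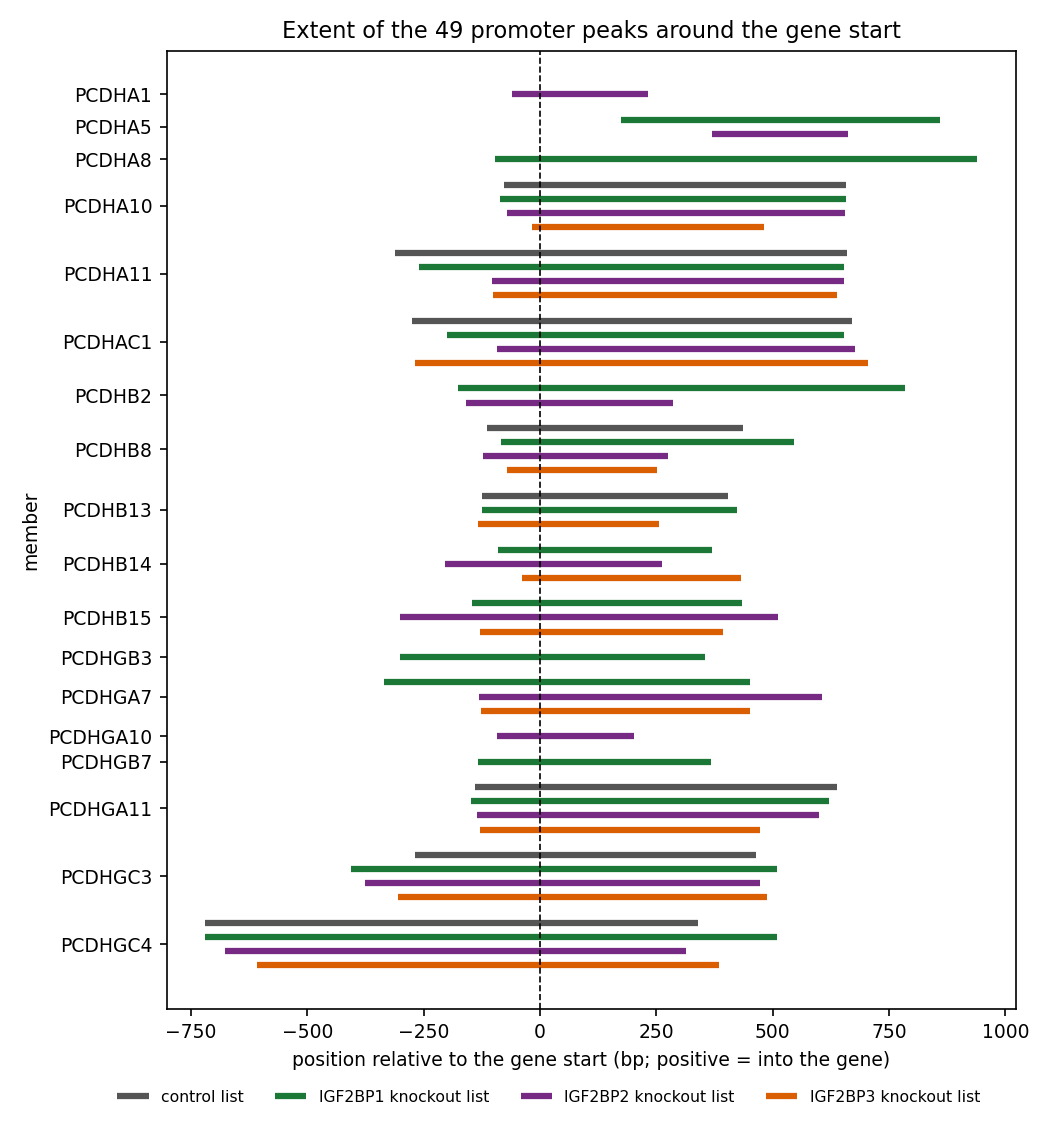
Extent of the 49 promoter peaks relative to the gene start (dashed line, positive values run into the gene), coloured by list. Most bars reach further to the right of the start than to the left; the PCDHGC4 bars begin at -719 to -609 bp.

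Within the clusters, accessible sites were mostly these promoters. Of the 24 regions inside the 3 clusters, 18 were member promoters and 6 were not. The pseudogenes PCDHA14, PCDHB17P, PCDHB18P, PCDHB19P, PCDHGB8P and PCDHGB9P had no peak within 500 bp of their lower coordinate. Over the whole window, 15 of 37 regions (40.5%) were in all 4 lists, against 41.5% of regions genome-wide. The promoters of PCDHB14, PCDHB15 and PCDHGA7 were the 3 regions (8.11%) shared by every knockout list but missing from the control, against 6.88% genome-wide. The control list alone held 0 regions of the window, against 1.98% genome-wide.

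Sites that are not member promoters were examined next, since enhancers of these clusters are known to lie between the alpha constant exons and the beta genes and downstream of the gamma genes. Whether any peak here is one of those enhancers was not tested. The alpha constant region, 140978949 to 141012344 in the gene table, held 2 regions. The first (141001383 to 141002509) had peaks of 1127 bp in the IGF2BP1 knockout list and 697 bp in the IGF2BP3 knockout list. The second (141003949 to 141004564) had peaks of 466 bp in the IGF2BP2 knockout list and 616 bp in the IGF2BP3 knockout list. The control list had a peak at neither.

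Between the alpha and beta clusters there were 2 regions, 27.6 and 28.5 kb beyond the alpha genes. The IGF2BP3 knockout list held the first (141039936 to 141040338, 403 bp). The IGF2BP1 and IGF2BP2 knockout lists held the second (141040837 to 141041427), with peaks of 591 and 514 bp. Each knockout list thus had a peak in this stretch, at 2 positions that did not overlap, and the control list, the shortest, had none. These 2 regions were picked after their positions were seen, and how often such pairs occur genome-wide was not counted. The peaks stood at width percentiles 11.2 (IGF2BP3 knockout list), 20.8 (IGF2BP1) and 30.2 (IGF2BP2). With peaks closer than 500 bp merged, regions of the window in all 3 knockout lists and not the control list numbered 4, against 3 before. Inside the beta cluster, 9.44 kb before PCDHB2, a region at 141084075 to 141085180 had peaks of 669, 1106 and 689 bp in the control, IGF2BP1 knockout and IGF2BP2 knockout lists and none in the IGF2BP3 knockout list.

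Between the beta and gamma clusters, the upper end of TAF7, which encodes a subunit of the general transcription factor TFIID, had a peak in all 4 lists (1019, 1089, 974 and 1053 bp). A region 3.92 kb before PCDHGA1 had peaks of 689 bp in the IGF2BP1 knockout list and 369 bp in the IGF2BP2 knockout list. Inside the gamma cluster, a region 5.73 kb into PCDHGC5 (141494808 to 141495547) had peaks of 653 bp in the IGF2BP1 knockout list and 628 bp in the IGF2BP3 knockout list. A narrow region at the shared downstream end of the gamma genes (141512225 to 141512750), starting 0.75 kb before that end, had peaks in all 4 lists, of 526, 489, 416 and 474 bp.

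Beyond the gamma genes, the peaks lay in DIAPH1, a gene for an actin-nucleating formin. Regions at 141524585 to 141525391 and 141591939 to 141592712 were in all 4 lists. The first was 725, 752, 807 and 696 bp wide and the second 519, 774, 515 and 705 bp wide, in the order used above. A region at 141557722 to 141558279 had peaks of 402, 558 and 489 bp in every list except the IGF2BP3 knockout list. Before the alpha genes, peaks were present in all 4 lists at the lower end of ZMAT2 and at the 3 vault RNA genes VTRNA1-1, VTRNA1-2 and VTRNA1-3. The VTRNA1-3 peak was 808, 1297, 1040 and 757 bp wide. A region between VTRNA1-2 and VTRNA1-3 (140719945 to 140720625) had peaks of 681 bp in the IGF2BP1 knockout list and 475 bp in the IGF2BP2 knockout list. The outermost regions of the window, at ZMAT2 and in DIAPH1, were in all 4 lists, as were the nearest regions outside it.

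Related gene lists gave a frame for these values. Of 10 protocadherin genes outside the clusters with a known start, 6 had a promoter peak in all 4 lists (PCDH8, PCDH9, PCDH15, PCDH17, PCDH18 and PCDH19), and PCDH1 and PCDH12 had none. PCDH7 had a peak in the control list alone (419 bp, width percentile 9.22), and PCDH11X had one in the IGF2BP3 knockout list alone (971 bp). Of 7 classical cadherins, CDH2, CDH10 and CDH12 had a peak in all 4 lists. CDH8 had one in the IGF2BP1 knockout list alone and CDH7 in the IGF2BP2 knockout list alone. Of 22 genes whose products are known to regulate the clusters, 20 had a promoter peak in all 4 lists, among them CTCF, the cohesin subunit genes SMC1A and SMC3, the cohesin loader gene NIPBL, WAPL, SMCHD1, SETDB1 and REST. DNMT3B, a DNA methyltransferase gene, had none. EHMT2, a histone methyltransferase gene, had peaks of 754, 1622 and 1445 bp in the control, IGF2BP1 knockout and IGF2BP2 knockout lists and none in the IGF2BP3 knockout list.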

How the data were processed

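ATAC-seq was made on 9 HEK293T libraries. The authors deposited 1 list of peaks per genotype, with chromosome, start and end and no score. Per the submitters' processing notes, fastp 0.24.1, BWA 0.7.17, MACS2 3.0.0, bedtools and GRCh38 were used; their roles, the peak threshold, the transposase offset and how libraries were combined are not given in the sources used here. Positions are counted from 1. Gene starts came from RefSeq promoter entries (GRCh38.p14) and were known for 15849 of 20056 coding genes; the 6 members without an entry were placed at their lower coordinate in the gene table and are among the 15849. Where a gene had several starts, a peak at any counted. Width percentiles rank a peak among all peaks of its list. Counting was done in Python 3.11.15 with pandas 2.3.3 and tested on simulated lists. The members and lists were chosen with earlier results of these data known. Named were all members, regions in 3 or 4 lists and the 5 further regions with the widest peaks, and related genes that differed between lists. Both regions between the alpha and beta clusters fell outside that rule and were named after their positions were seen; 2 more regions outside it, each in the IGF2BP2 knockout list alone, are not described. Alternatives covered the promoter window, overlap rule, merging, list length and peak width.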

Additional observations from a re-analysis of the deposited data

How the results depend on the processing

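Of 67 combinations of a count and an alternative setting, 54 stayed within 1.5 times of the reported count and 13 did not. Promoter windows of 250 or 1000 bp, requiring a peak over the start itself, sharing of 50% of the shorter peak, and merging of peaks closer than 500 bp moved none of the counts past that limit. All 13 came from the settings that remove narrow peaks. With each list limited to its 39194 widest peaks, members with a peak fell from 14 to 8 in the IGF2BP2 knockout list. Members gained against the control then numbered 5 of 45 in the IGF2BP1 and 2 of 45 in the IGF2BP2 knockout lists (coding genes 5.51 and 4.35%), and members lost, of 8, numbered 1, 2 and 2 for IGF2BP1, IGF2BP2 and IGF2BP3 (PCDHB13 in each, PCDHB8 in the last 2), against 2.18, 4.33 and 2.27% of coding genes. Regions in all 3 knockout lists but not the control list fell to 1, and 2 regions were in the control list alone. With peaks of at least 500 bp, the IGF2BP2 knockout list had 8 members with a peak and 2 of 45 gained (4.44%, below the 5.77% of coding genes). Then 2 of 8 members were lost in the IGF2BP2 and 2 of 8 in the IGF2BP3 knockout list (coding genes 2.88 and 2.59%), and 1 region was in the control list alone. The first setting removes peaks from the knockout lists alone, since the control list is the shortest; the second removes them from all 4 lists. No paired analysis was possible because the libraries of a genotype were combined into 1 list, and for the same reason no library could be left out.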
